A study of Mus musculus with 18 samples.

Results

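Loss of Pdcd10 from brain endothelium was described here in mice kept in low oxygen. The comparison takes the 9 hypoxia libraries of a series of 18, 5 named KO (numbers 1 to 5) and 4 named flox (numbers 2 to 5), and covers all 17531 genes that passed a filter on low counts, of 57010 counted. Each library holds RNA from isolated brain endothelial cells, read in bulk with a stranded mRNA kit. KO mice carried the tamoxifen-inducible driver Slco1c1-iCreERT2, 2 floxed alleles (Pdcd10fl/fl) and the reporter Aldh1l1-EGFP/Rpl10a, and received 50 µg of 4-hydroxytamoxifen into the stomach on postnatal day 1. Flox mice had the same floxed alleles and reporter without the driver. Postnatal day 1 is recorded as injection day for flox mice too, without a dose. Whether they received the drug is thus not stated, and its effect cannot be told apart from that of genotype. Per the design text, Cre carriers left uninjected served as controls too, and no label ties one to a library. Both groups spent 7 days at 12% O2, carried the floxed alleles and the astrocyte reporter, and were sampled at postnatal day 57. The other 9 libraries are the same genotypes at 21% O2.

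Pdcd10 encodes CCM3, one of the proteins whose loss gives cerebral cavernous malformations, which are enlarged, leaky capillary and venous channels of the brain. CCM proteins restrain the kinase MEKK3 and, through it, the transcription factors KLF2 and KLF4, and endothelium without them gains anticoagulant proteins and loses features of quiescent vessels. The Slco1c1 promoter drives the Cre recombinase in brain endothelium and also in choroid plexus epithelium. Low oxygen stabilises the HIF transcription factors, which switch on glycolysis and vessel growth.

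Pdcd10 itself checked the labels. It stood at 22.1, 21.6, 25.3, 18.2 and 19.3 CPM (counts scaled to TMM-adjusted library size) in KO libraries 1 to 5, against 37.7, 49.0, 44.4 and 60.9 CPM in flox libraries 2 to 5. Every KO library was below every flox library, and transcripts remained in all 5. The log2 fold change, KO over flox, was -1.17 ± 0.14 (SE) with an adjusted p of 2.87e-05 by edgeR's quasi-likelihood test, which is the test behind each adjusted p below. Per transcript length, Pdcd10 averaged 6.94 RPKM in KO and 17.5 RPKM in flox. In bulk RNA, fewer cells of a type and less RNA per cell cannot be told apart. The labels do not say whether libraries come from separate animals. The p-values thus judge group differences against the spread between libraries, which may not be that between animals. For edgeR that spread was estimated over all 18 libraries.

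Library differences other than the labels moved with genotype. Total counts were 17.9 to 23.3 M in KO and 18.7 to 23.2 M in flox. Genes that cells switch on within minutes of handling or stimulation (immediate early genes, 18 tested) had a mean log2 CPM of 6.67 in KO 1 and 9.54 to 9.82 in KO 2 to 5, against 9.21, 7.83, 6.02 and 5.90 in flox 2 to 5. The groups differed by 1.82 (exact two-sided permutation test, p = 0.0952, smallest p possible 0.00794; n = 5 and 4). KO 1, 2, 3 and 5 had 669 to 830 CPM of Xist. KO 4 and all 4 flox libraries had Y-linked transcripts and at most 1.72 CPM of Xist. The log2 ratio of Y-linked CPM to Xist (sex signal) differed between groups (exact two-sided permutation test, p = 0.0317, smallest p possible 0.00794; n = 5 and 4). Sex is not labelled. These signals largely moved with genotype, so an effect of sex largely cannot be told apart from that of genotype. With both measures as covariates, 2877 genes were called, against 3916 without them, and 2091 genes were in both sets. Endothelial markers were abundant in both groups: 18 pan-endothelial markers summed to 23920 to 28483 CPM in KO libraries, against 23664 to 28797 CPM in flox libraries, with 3 called higher and 2 lower. Pecam1, the endothelial adhesion molecule CD31, had 1726 to 2007 CPM in KO libraries, against 1377 to 1442 CPM in flox libraries. Other brain cells were present at lower levels, with 12 astrocyte markers at 201 to 316 CPM in KO libraries, against 315 to 415 CPM in flox libraries. The 12 neuron markers were at 26.0 to 74.5 CPM in KO libraries, against 42.1 to 93.5 CPM in flox libraries. Oligodendrocyte and red blood cell markers ranged more widely within a group than between groups, at 717 to 4947 CPM and 2609 to 8009 CPM in KO libraries, against 662 to 2558 CPM and 3542 to 4830 CPM in flox libraries. Microglia and macrophage markers, 2 of 14 called higher and 1 lower, summed to 60.6 to 201 CPM in KO libraries, against 28.7 to 58.6 CPM in flox libraries, without overlap. Ependymal and choroid markers, 2 of 8 called higher, summed to 181, 155, 953, 842 and 262 CPM in KO libraries, against 183 CPM in flox 2 and at most 63.7 CPM in the other flox libraries. The part of these cells' RNA in the results below was not tested. KO 4 also stood apart in immune genes, and values without it are given where they matter.

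**Figure D1:**
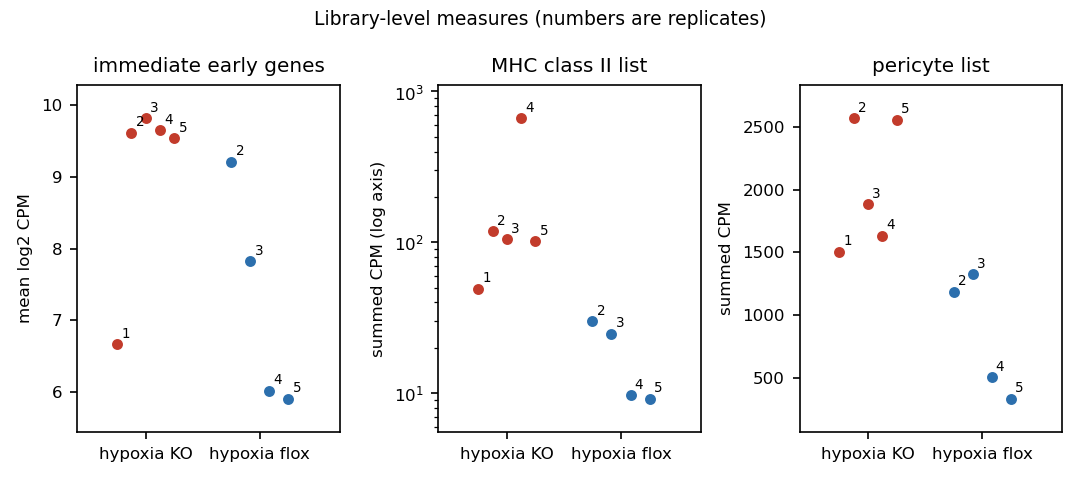
Library-level measures in the 5 hypoxia KO (red) and 4 hypoxia flox (blue) libraries, 1 point per library with its replicate number: mean log2 CPM of immediate early genes, and summed CPM of the MHC class II (log axis) and pericyte lists. KO 1 is low in immediate early genes, and KO 4 is at 665 CPM for MHC class II.

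Of the 17531 genes, 3916 (22.3%) passed an adjusted p of 0.05. There were 1994 higher in KO (11.4%) and 1922 lower (11.0%). A change of at least 1 log2 unit was met by 835 of the higher and 699 of the lower genes, and of at least 3 by 181 and 13, so the large changes were mostly increases. The genes called higher took 23.1% of the counts in KO libraries, against 16.2% in flox libraries. Those called lower took 7.38% in KO libraries, against 12.8% in flox libraries. The direction of both differences follows from how the genes were chosen, so these shares describe size only. In all, 1345 genes (7.67%), 858 higher and 487 lower, kept their call in each of 23 alternative fits that gave them an adjusted p; for 49 of these genes at least 1 fit gave none.

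**Figure D2:**
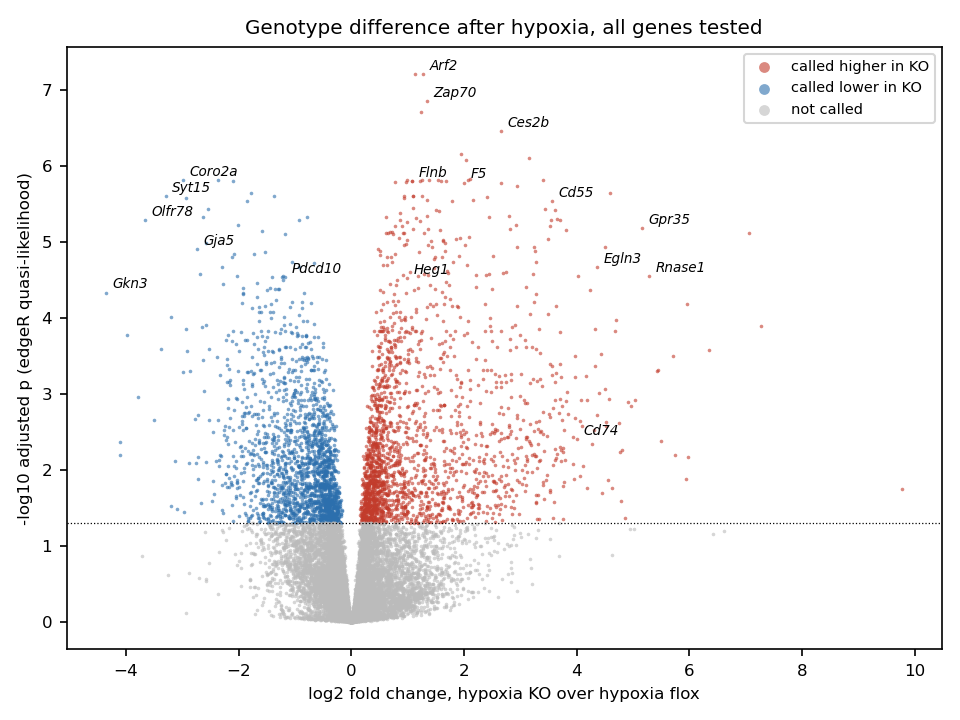
Log2 fold change (hypoxia KO over hypoxia flox) against -log10 of the adjusted p for the genes tested; red and blue mark genes called higher and lower in KO, and the dotted line is the threshold of 0.05. Increases reach further than decreases.

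The smallest p-values went to genes whose libraries barely varied within a group. Arf2, a small GTPase of membrane traffic, was at 212, 193, 200, 234 and 192 CPM in KO libraries, against 93.2, 78.9, 86.4 and 80.7 CPM in flox libraries. Its log2 fold change was 1.28 ± 0.07 (adjusted p = 6.23e-08). Zap70, a kinase best known from T-cell receptor signalling, had 71.9 to 88.4 CPM in KO libraries, against 29.0 to 34.2 CPM in flox libraries (1.35 ± 0.08, adjusted p = 1.41e-07). Markers of T and NK lymphocytes also rose, as given below, and the part of lymphocyte RNA in the Zap70 result was not tested. Pmepa1, a TGF-beta-induced inhibitor of the pathway, had 216 to 248 CPM in KO libraries, against 90.6 to 105 CPM in flox libraries. Ces2b, a carboxylesterase, had 17.9 to 21.5 CPM in KO libraries, against 2.60 to 3.48 CPM in flox libraries. Hpse, the enzyme that cuts heparan sulphate, had 2.37 to 4.07 CPM in KO libraries, against 0.293 to 0.441 CPM in flox libraries. The groups overlapped for none of these genes. Over all genes tested, 3908 (22.3%) had groups without overlap, among them 1550 of the genes called higher and 1322 of those called lower. Separate groups are thus usual among called genes, and are given here and below as description only.

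Large increases are described among called genes whose mean level reached 1 on the log2 CPM scale, with a full gene symbol and groups that do not overlap, of which those named here were barely expressed in flox libraries; some genes of lower expression and Xist had larger fold changes. Rnase1, a secreted ribonuclease, was at 9.16, 7.49, 5.97, 7.61 and 11.5 CPM in KO libraries, against 0.251, 0.0912, 0.297 and 0.196 CPM in flox libraries (5.29 ± 0.63, adjusted p = 2.83e-05). The transcript of the membrane receptor gene Gpr35 had 16.2 to 34.8 CPM in KO libraries, against 0.147 to 1.51 CPM in flox libraries (5.16 ± 0.51, adjusted p = 6.55e-06). Every KO library held both transcripts. Ctnnd2, delta-catenin, known mainly from neurons, was at 62.9, 37.6, 46.6, 39.2 and 38.0 CPM in KO libraries, against 0.784 to 1.84 CPM in flox libraries (4.96 ± 0.92, adjusted p = 0.00144; DESeq2 gave no adjusted p). The part of RNA from neurons in this value was not tested. Serpina1b and Serpina1d, alpha-1-antitrypsin copies so alike that reads may be split between them, rose by 5.04 ± 0.92 and 4.58 ± 0.84 on the log2 scale. Tnfrsf9, the costimulatory receptor 4-1BB, had 33.5 CPM in KO 4 and 3.23 to 5.82 CPM in the other KO libraries, against 0.0912 to 0.882 CPM in flox libraries. Adam33, a membrane metalloprotease, had 3.45 to 12.5 CPM in KO libraries, against 0.0980 to 0.446 CPM in flox libraries.

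By the same limits the largest decreases were those of Gkn3, described with the arterial genes below, Lao1, an amino acid oxidase (-3.79 ± 0.70), and Olfr78. Olfr78, an olfactory receptor family member also found in vessels, was at 0.539, 0.269, 0.410, 0.145 and 0.357 CPM in KO libraries, against 5.57, 4.93, 4.75 and 2.30 CPM in flox libraries (-3.66 ± 0.36, adjusted p = 5.16e-06). Syt15, a synaptotagmin, had 2.96 to 8.56 CPM in KO libraries, against 45.9 to 72.4 CPM in flox libraries (-3.29 ± 0.29, adjusted p = 2.48e-06). Coro2a, an actin-binding coronin, had 1.63 to 3.88 CPM in KO libraries, against 15.8 to 29.0 CPM in flox libraries (-2.99 ± 0.24, adjusted p = 1.54e-06). For each of these 3 genes the lowest flox library was above the highest KO library, which the limits required.

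Among the lower genes, Wnt5a, a Wnt ligand, had 12.6, 15.6, 18.5, 16.4 and 10.2 CPM in KO libraries, against 61.2, 64.9, 75.9 and 102 CPM in flox libraries. Its log2 fold change was -2.37 ± 0.19 (adjusted p = 1.54e-06). Lifr, the receptor of leukaemia inhibitory factor, had 25.4 to 45.8 CPM in KO libraries, against 113 to 149 CPM in flox libraries. Mertk, a receptor that clears dying cells, had 42.1 to 51.8 CPM in KO libraries, against 110 to 127 CPM in flox libraries. Each lay in KO libraries under its whole flox range.

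Several abundant endothelial transcripts also fell. Spock2, the matrix proteoglycan testican-2, was at 4494, 3947, 4583, 2463 and 3673 CPM in KO libraries, against 6333, 6991, 7736 and 7581 CPM in flox libraries (-0.90 ± 0.17, adjusted p = 0.00148). Itih5, a hyaluronan-associated inter-alpha-trypsin inhibitor chain, had 153 to 459 CPM in KO libraries, against 930 to 1389 CPM in flox libraries (-1.93 ± 0.24, adjusted p = 4.71e-05). Selenop, the selenium carrier, had 760 to 901 CPM in KO libraries, against 1394 to 1511 CPM in flox libraries (-0.79 ± 0.08, adjusted p = 4.66e-06). KO 4 was lowest of all libraries for Spock2 and Itih5. Itm2a, a membrane protein, had 446 to 1155 CPM in KO libraries, against 1686 to 2686 CPM in flox libraries.

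Coagulation genes rose as a group: 14 of 25 tested were called higher and none lower, with a median log2 fold change of 1.26, against -0.0021 over all genes tested. F5, factor V, was at 829, 586, 567, 823 and 640 CPM in KO libraries, against 177, 188, 154 and 165 CPM in flox libraries (2.01 ± 0.17, adjusted p = 1.66e-06). Thbd, thrombomodulin, which turns thrombin to anticoagulant use, had 905 to 1120 CPM in KO libraries, against 306 to 515 CPM in flox libraries. The groups did not overlap for either gene. Procr, the receptor of protein C, had 105 CPM in KO 4 and 56.7 to 61.0 CPM in the other KO libraries, against 21.5 to 33.7 CPM in flox libraries. Tfpi, the tissue factor pathway inhibitor, had 111 to 120 CPM in KO libraries, against 47.5 to 52.6 CPM in flox libraries. Leaving out each library in turn left 11 to 15 of the list called higher.

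Within the CCM complex and its partners, 4 of 18 genes were called higher (2 without flox 3) and 2 lower, a share of lower genes near the 11.0% of all genes. Heg1, the membrane receptor that anchors the complex, had 1732 to 2272 CPM in KO libraries, against 831 to 1082 CPM in flox libraries (1.00 ± 0.12, adjusted p = 3.01e-05). Ccm2 rose by a log2 fold change of 0.31 ± 0.06. Klf2 had 856 CPM in KO 1 and 1712 to 1873 CPM in KO 2 to 5, against 475 to 790 CPM in flox libraries (1.41 ± 0.35, adjusted p = 0.00947). Klf2 in KO 1 lay just above the highest flox library, and that library was also low in immediate early genes. Klf4, its relative, had 872 to 3387 CPM in KO libraries and 409 to 1597 CPM in flox libraries, which overlap, and missed the threshold (adjusted p = 0.0994).

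Single angiogenic genes and many matrix genes rose. Fn1, fibronectin, had 12759, 10918, 10862, 15578 and 10250 CPM in KO libraries, against 6310, 6438, 6575 and 6943 CPM in flox libraries (0.88 ± 0.13, adjusted p = 0.000203). Apln, the peptide ligand apelin of sprouting tip cells, had 1101 to 2263 CPM in KO libraries, against 238 to 418 CPM in flox libraries (2.50 ± 0.50, adjusted p = 0.00251). Angpt2, the ligand that destabilises vessels, had 366 to 660 CPM in KO libraries, against 123 to 205 CPM in flox libraries. All 3 genes had separate groups. The angiopoietin and VEGF list as a whole had 4 of 20 called higher and none lower, with a median of -0.0086 and 10 of 20 positive. Of 24 basement membrane genes, 11 were called higher and 6 lower, with a median of 0.28. Col4a1 rose by 0.47 ± 0.09 and Lamc1, the laminin gamma1 chain, by 0.69 ± 0.08, both on the log2 scale. Lama3, a laminin alpha chain, went the other way, with 6.49 to 19.8 CPM in KO libraries, against 68.0 to 89.8 CPM in flox libraries (-2.57 ± 0.27, adjusted p = 1.02e-05). Hspg2, the heparan sulphate proteoglycan perlecan, had 1868 to 2448 CPM in KO libraries, against 1154 to 1442 CPM in flox libraries. Of 22 integrin and fibronectin genes 7 were called higher and 1 lower, and 4 were called higher with immediate early score and sex signal as covariates or without flox 5. Of 30 matrix proteases and their inhibitors 9 were called higher and 1 lower, with 5 higher without KO 4, flox 3 or flox 5. Timp2, an inhibitor of these proteases, had 139 to 243 CPM in KO libraries, against 49.4 to 58.5 CPM in flox libraries (1.75 ± 0.36, adjusted p = 0.00301). Mmp14, a membrane-bound matrix protease, had 20.8 to 33.6 CPM in KO libraries, against 4.75 to 8.16 CPM in flox libraries.

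Genes of the hypoxia pathway differed although both groups had been in 12% O2. Hif1a had 281 to 340 CPM in KO libraries, against 133 to 176 CPM in flox libraries (1.04 ± 0.12, adjusted p = 2.53e-05), while Epas1, which encodes HIF2-alpha, had 2187 to 2721 CPM in KO libraries, against 3306 to 4044 CPM in flox libraries (-0.55 ± 0.13, adjusted p = 0.00631). Per transcript length, Epas1 averaged 432 RPKM in KO and 703 RPKM in flox, well above Hif1a at 49.4 RPKM in KO and 26.9 RPKM in flox. The Epas1 call was lost with immediate early score and sex signal together as covariates. Egln3, the HIF-induced prolyl hydroxylase, had 32.2, 35.7, 30.1, 40.5 and 34.8 CPM in KO libraries, against 1.14 to 2.30 CPM in flox libraries (4.37 ± 0.49, adjusted p = 2.17e-05), and DESeq2 gave it no adjusted p. Mxi1, a MYC antagonist that HIF induces, had 134 to 149 CPM in KO libraries, against 63.1 to 82.2 CPM in flox libraries. Of 34 HIF target genes, 14 were called higher and 3 lower. Of 19 glycolysis genes, 10 were called higher and none lower, with a median of 0.57; their summed level was 3969 to 5419 CPM in KO libraries, against 2863 to 3032 CPM in flox libraries. Hk1, hexokinase, and Ldha, lactate dehydrogenase, rose by 0.77 ± 0.10 and 0.47 ± 0.09 on the log2 scale. By contrast 1 of 30 nuclear-encoded respiratory chain genes and none of 24 cholesterol synthesis genes was called, under the 22.3% of all genes. For the respiratory chain this depended on the fit: with both covariates 6 of the 30 were called higher and none lower. Over all genes 1740 were called higher in that fit. No cholesterol synthesis gene was called there either.

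Mxi1 is shown because its promoter holds the core of the hypoxia response element. The window is 250 bases before to 50 after the start of transcription, from RefSeq with build GRCm38.p6, at chr19:53329163-53329462, plus strand; capitals mark ACGTG. This motif, searched on both strands, lay in 20 of 24 tested HIF targets with a promoter in the table, against 28.1% of all tested genes in it. The match is a description of letters, not a binding site.
Mxi1: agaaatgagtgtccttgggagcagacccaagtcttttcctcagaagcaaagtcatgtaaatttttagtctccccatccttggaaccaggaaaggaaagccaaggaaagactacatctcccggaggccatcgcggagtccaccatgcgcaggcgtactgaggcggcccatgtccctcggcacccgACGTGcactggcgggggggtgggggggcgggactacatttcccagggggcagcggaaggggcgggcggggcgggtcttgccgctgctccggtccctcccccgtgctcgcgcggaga

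In the list of endothelial-to-mesenchymal transition, a state in which endothelium takes on fibroblast traits, 7 of 18 genes were called higher and 2 lower. Col3a1, a fibrillar collagen, was at 63.2, 47.5, 35.7, 34.9 and 69.6 CPM in KO libraries, against 6.16, 6.43, 7.73 and 7.98 CPM in flox libraries (2.83 ± 0.29, adjusted p = 6.77e-06). S100a6, a calcium-binding protein, had 127 CPM in KO 4 and 28.3 to 34.2 CPM in the other KO libraries, against 1.93 to 3.97 CPM in flox libraries (4.24 ± 0.51, adjusted p = 4.28e-05). Both genes were higher in every KO library. Col3a1 is also a fibroblast marker; 4 of 10 such markers were called higher and 1 lower, and 2 higher without KO 4 or flox 5. The summed fibroblast level was 99.8 to 202 CPM in KO libraries and 55.6 to 510 CPM in flox libraries, which overlap. The part of fibroblast RNA in the Col3a1 result was not tested.

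Arterial genes fell together: 13 of 24 were called lower and none higher, with a median of -0.78. Gkn3, a marker of brain arteries in mice, was at 4.36, 2.05, 3.10, 0.0969 and 1.79 CPM in KO libraries, against 28.5, 52.7, 58.2 and 45.7 CPM in flox libraries (-4.35 ± 0.53, adjusted p = 4.65e-05). Gja5, the gap junction protein connexin 40, had 2.19 to 6.25 CPM in KO libraries, against 15.8 to 30.4 CPM in flox libraries (-2.73 ± 0.30, adjusted p = 1.25e-05). Bmx, a kinase of arterial endothelium, had 11.2 to 25.4 CPM in KO libraries, against 61.4 to 84.7 CPM in flox libraries. Hey1, a Notch target, had 15.5 to 36.9 CPM in KO libraries, against 66.0 to 103 CPM in flox libraries. For none of the 4 genes did the groups overlap, and leaving out each library in turn left 12 to 14 arterial genes called lower. Of 13 smooth muscle markers 9 were called lower and 1 higher (Actg2, an enteric actin, named after its value was seen), with 6 lower when both covariates were in the fit, and the summed level was 647 to 868 CPM in KO libraries, against 1039 to 1367 CPM in flox libraries. Acta2, smooth muscle actin, had 39.4 to 75.8 CPM in KO libraries, against 96.1 to 188 CPM in flox libraries. The part of smooth muscle RNA in the arterial result was not tested.

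Venous genes were mixed, with 1 of 16 called higher and 4 lower, and 2 lower without flox 4, flox 5 or KO 5. Their median was 0.22 with 10 of 16 positive, and -0.014 without KO 4. Their summed level was 5371 to 7969 CPM in KO libraries and 4426 to 5808 CPM in flox libraries, which overlap. Of 38 guidance receptors and ligands, which steer vessels and axons, 6 were called higher (3 without flox 4 or flox 5) and 5 lower, shares near the 11.4% and 11.0% of all genes. Robo4, an endothelial roundabout receptor, had 927 to 1201 CPM in KO libraries, against 565 to 643 CPM in flox libraries (0.74 ± 0.09, adjusted p = 6.09e-05). Its binding partner Unc5b had 86.8 to 145 CPM in KO libraries, against 194 to 276 CPM in flox libraries (adjusted p = 0.000256). Sema3g, a semaphorin of arteries, had 125 to 264 CPM in KO libraries, against 361 to 679 CPM in flox libraries (-1.48 ± 0.21, adjusted p = 0.000147). The groups of these 3 genes were separate.

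Pericyte markers rose, 7 of 13 called higher and none lower, with a summed level of 1507 to 2567 CPM in KO libraries, against 338 to 1325 CPM in flox libraries. Kcnj8 and Abcc9, the channel subunits of brain pericytes, rose by 4.03 ± 0.47 and 3.70 ± 0.58 on the log2 scale. Abcc9 had 54.5, 154, 109, 108 and 158 CPM in KO libraries, against 13.7, 16.1, 4.11 and 1.76 CPM in flox libraries. The list's count was 4 without flox 4, and it fell to 3 with the sex signal as covariate and to 1 in the libraries with Y-linked transcripts, where KO is a single hypoxia library, and the Abcc9 call was lost in that last fit. Their part in the other results was not tested.

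Barrier genes were called in both directions. Of 27 solute carriers of the barrier, 7 were called lower and 2 higher, and 4 were called lower without KO 4 or flox 5. The smaller count lower is near the 11.0% of all genes in the main fit, and the 2 higher are under the 11.4%. No fall or rise of the carriers as a list is read from these counts. Slc5a6, the multivitamin transporter, averaged 17.3 ± 4.86 CPM in KO libraries (SD, n = 5), against 49.8 ± 3.31 CPM in flox libraries (SD, n = 4; -1.52 ± 0.17, adjusted p = 1.37e-05). Slc2a1, the glucose transporter, was not called (0.25 ± 0.14, adjusted p = 0.214). Of 24 Wnt and beta-catenin genes that maintain the barrier, 6 were called lower and 1 higher, and 3 were called lower without KO 4 or flox 5 and 2 without flox 4. The smaller counts are near the 11.0% of all genes called lower in the main fit, so no fall of the list is read from them. Apcdd1, a Wnt inhibitor that barrier endothelium makes under Wnt signalling, had 480 to 948 CPM in KO libraries, against 1072 to 1394 CPM in flox libraries (-0.68 ± 0.17, adjusted p = 0.00824), and lost its call with both covariates. Slc22a8, the organic anion transporter OAT3, had 154 to 395 CPM in KO libraries, against 547 to 981 CPM in flox libraries (-1.39 ± 0.23, adjusted p = 0.00054). In both cases KO 4 was the lowest library. Among junction genes 8 of 25 were called higher and 3 lower, and 4 were called higher with both covariates. The share called lower is near the 11.0% of all genes. Ildr2, an angulin of tricellular junctions, had 26.0 to 42.6 CPM in KO libraries, against 87.6 to 120 CPM in flox libraries (-1.59 ± 0.16, adjusted p = 7.14e-06). Cldn5, the main claudin of the barrier, had 1609 to 1804 CPM in KO libraries and 1440 to 1795 CPM in flox libraries (0.04 ± 0.12, adjusted p = 0.865).

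Of 21 genes of caveolae and transcytosis, the vesicle route that a tight barrier keeps low, 7 were called higher and none lower. Ehd1, which remodels endocytic membrane, was at 207, 201, 181, 256 and 169 CPM in KO libraries, against 85.1, 76.1, 82.4 and 66.2 CPM in flox libraries (1.39 ± 0.11, adjusted p = 1.54e-06). Insr, the insulin receptor, had 680 to 767 CPM in KO libraries, against 442 to 542 CPM in flox libraries (0.54 ± 0.11, adjusted p = 0.00309). Both genes were separate between groups. Pacsin2, a membrane-bending protein of caveolae, rose by 0.52 ± 0.06 on the log2 scale.

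**Figure D3:**
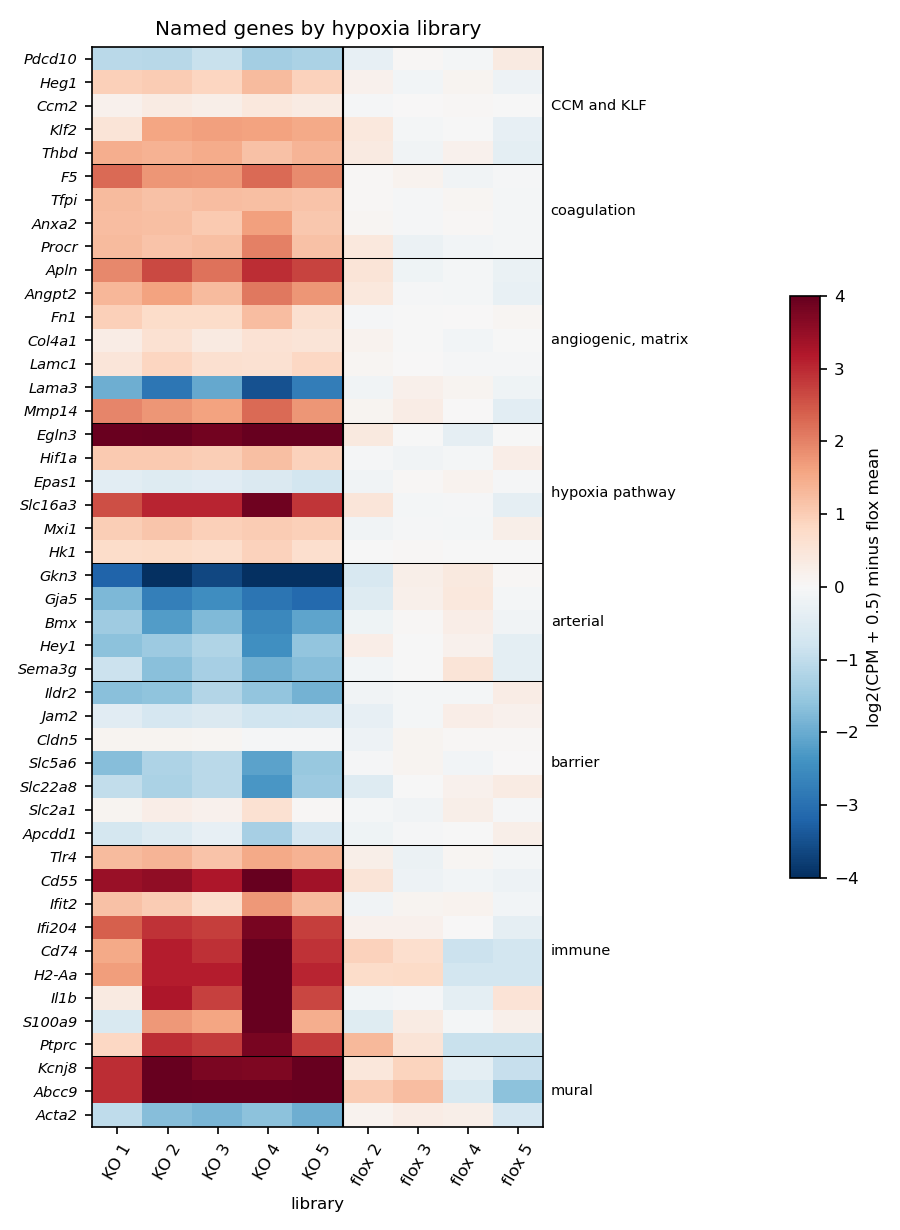
Log2(CPM + 0.5) of named genes minus the flox mean, 1 column per hypoxia library, KO left of flox; red is higher and blue lower. Tfpi and Egln3 values are alike over the 5 KO libraries, while Procr, Cd74, H2-Aa, Il1b and S100a9 are highest in KO 4.

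Immune genes rose unevenly. Of 19 NF-kB subunits and targets 10 were called higher and none lower. Their summed level was 1102, 2863, 3069, 3321 and 2555 CPM in KO libraries, against 2665, 1250, 854 and 861 CPM in flox libraries, which overlap, with KO 1 low and flox 2 high as in the immediate early score. With that score as covariate 8 were called and the median log2 fold change was 0.36, against 0.74 without it. Of 18 Toll-like receptor genes 8 were called higher, and 5 without KO 3 or KO 4. Tlr4, the endotoxin receptor, had 30.5 to 39.7 CPM in KO libraries, against 11.6 to 16.0 CPM in flox libraries (1.36 ± 0.14, adjusted p = 6.77e-06). Cd55, a brake on complement, had 119 to 203 CPM in KO libraries, against 10.4 to 17.6 CPM in flox libraries (3.56 ± 0.32, adjusted p = 2.9e-06). For both genes all 5 KO libraries lay above the flox range. Of 42 interferon-stimulated genes, 15 were called higher and none lower, 10 without KO 4 and 9 without flox 5. Ifi211, an interferon-inducible DNA sensor family member, had 4.58, 7.76, 4.74, 17.2 and 6.89 CPM in KO libraries, against 0.629, 0.274, 0.347 and 0.147 CPM in flox libraries (4.51 ± 0.48, adjusted p = 1.16e-05). Ifi207, its close relative, rose by 3.73 ± 0.64 on the log2 scale, and reads shared between such paralogs make both values uncertain.

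Both promoters were picked from called interferon-stimulated genes of small adjusted p whose window holds the interferon response element. The motif was thus a condition of the choice. The windows are alike and hold it at nearly the same place. They are RefSeq windows of build GRCm38.p6, Ifi211 at chr1:173912997-173913296, minus strand and Ifi207 at chr1:173741760-173742059, minus strand; capitals mark the interferon response element, GAAA and GAAA with 2 bases of any kind between them, searched on both strands. It lay in 20 of 30 tested interferon genes with a promoter in the table, against 3.80% of all tested genes in it.
Ifi211: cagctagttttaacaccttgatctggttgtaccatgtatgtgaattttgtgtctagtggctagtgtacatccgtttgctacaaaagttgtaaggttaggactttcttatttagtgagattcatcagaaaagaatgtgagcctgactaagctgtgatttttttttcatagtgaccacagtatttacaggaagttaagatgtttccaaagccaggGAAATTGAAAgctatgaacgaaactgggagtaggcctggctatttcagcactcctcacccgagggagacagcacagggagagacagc
Ifi207: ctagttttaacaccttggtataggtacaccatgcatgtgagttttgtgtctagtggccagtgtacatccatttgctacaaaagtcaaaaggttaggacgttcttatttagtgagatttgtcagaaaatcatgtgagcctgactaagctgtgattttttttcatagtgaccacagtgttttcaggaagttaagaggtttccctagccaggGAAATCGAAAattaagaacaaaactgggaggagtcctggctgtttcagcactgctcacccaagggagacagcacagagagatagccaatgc

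Of 28 TNF superfamily ligands and receptors 11 were called higher and 3 lower. Tnfrsf23, a decoy receptor, was at 29.6, 39.7, 22.7, 82.7 and 27.1 CPM in KO libraries, against 7.88, 7.39, 6.49 and 6.71 CPM in flox libraries (2.50 ± 0.31, adjusted p = 4.16e-05). Tnfsf15, a ligand of endothelial origin, had 3.60 to 9.91 CPM in KO libraries, against 0.297 to 2.22 CPM in flox libraries (2.74 ± 0.47, adjusted p = 0.00057). Fas, the death receptor, went the other way, with 19.4 to 37.8 CPM in KO libraries, against 49.0 to 80.3 CPM in flox libraries (-1.28 ± 0.21, adjusted p = 0.000443). Of 20 MHC class I genes 4 were called higher and none lower, 2 without KO 4, flox 2 or flox 5, and 7 without KO 1. KO 4 had 2069 CPM of B2m, the light chain, against 761 to 990 CPM in the other KO libraries and 457 to 671 CPM in flox libraries.

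MHC class II genes, which present peptides to T cells, had 9 of 10 called higher, with a median of 3.35. Cd74, the invariant chain, was at 13.7, 43.3, 37.2, 299 and 36.2 CPM in KO libraries, against 9.01, 7.48, 2.23 and 2.50 CPM in flox libraries (4.01 ± 0.86, adjusted p = 0.00394). KO 4 was highest by far and KO 1 was nearest to flox. Without KO 4, Cd74 kept its call at 2.61 (adjusted p = 0.00441), and 6 of 10 class II genes were called higher; with the immediate early score as covariate 4 of 10 were, and without flox 4 or flox 5, 5 were. Leukocyte markers moved the same way. Of 12 T and NK lymphocyte markers tested 10 were called higher, 6 without KO 4 and 4 with the immediate early score as covariate. All 15 on the list summed to 4.58 to 42.8 CPM in KO libraries, against 0.980 to 7.17 CPM in flox libraries. Cd3d, Cd3e and Klrb1c were too low to test. The filter asks for counts in only as many libraries as the smallest group holds. Genes near the floor in flox libraries could thus enter through KO libraries alone, which favours calls of higher. This limit holds for the class II and B lymphocyte counts too. Of 8 B lymphocyte markers tested 7 were called higher, 2 with both covariates, 3 without flox 5, and 4 without flox 3, flox 4 or KO 5. All 10 on that list summed to 27.5 to 65.3 CPM in KO libraries, against 6.22 to 21.0 CPM in flox libraries. Ptprc, the pan-leukocyte CD45, had 5.87, 27.2, 24.4, 49.6 and 24.5 CPM in KO libraries, against 8.30, 4.61, 1.44 and 1.42 CPM in flox libraries, and lost its call without KO 4 (adjusted p = 0.0565) and also without flox 4 or flox 5. S100a9, a neutrophil protein, had 49.4 CPM in KO 4 and 0.108 to 2.59 CPM in the other KO libraries, against 0.168 to 0.684 CPM in flox libraries, and also lost its call without KO 4 (adjusted p = 0.0523). The part of leukocyte RNA in the immune results was not tested.

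**Figure D4:**
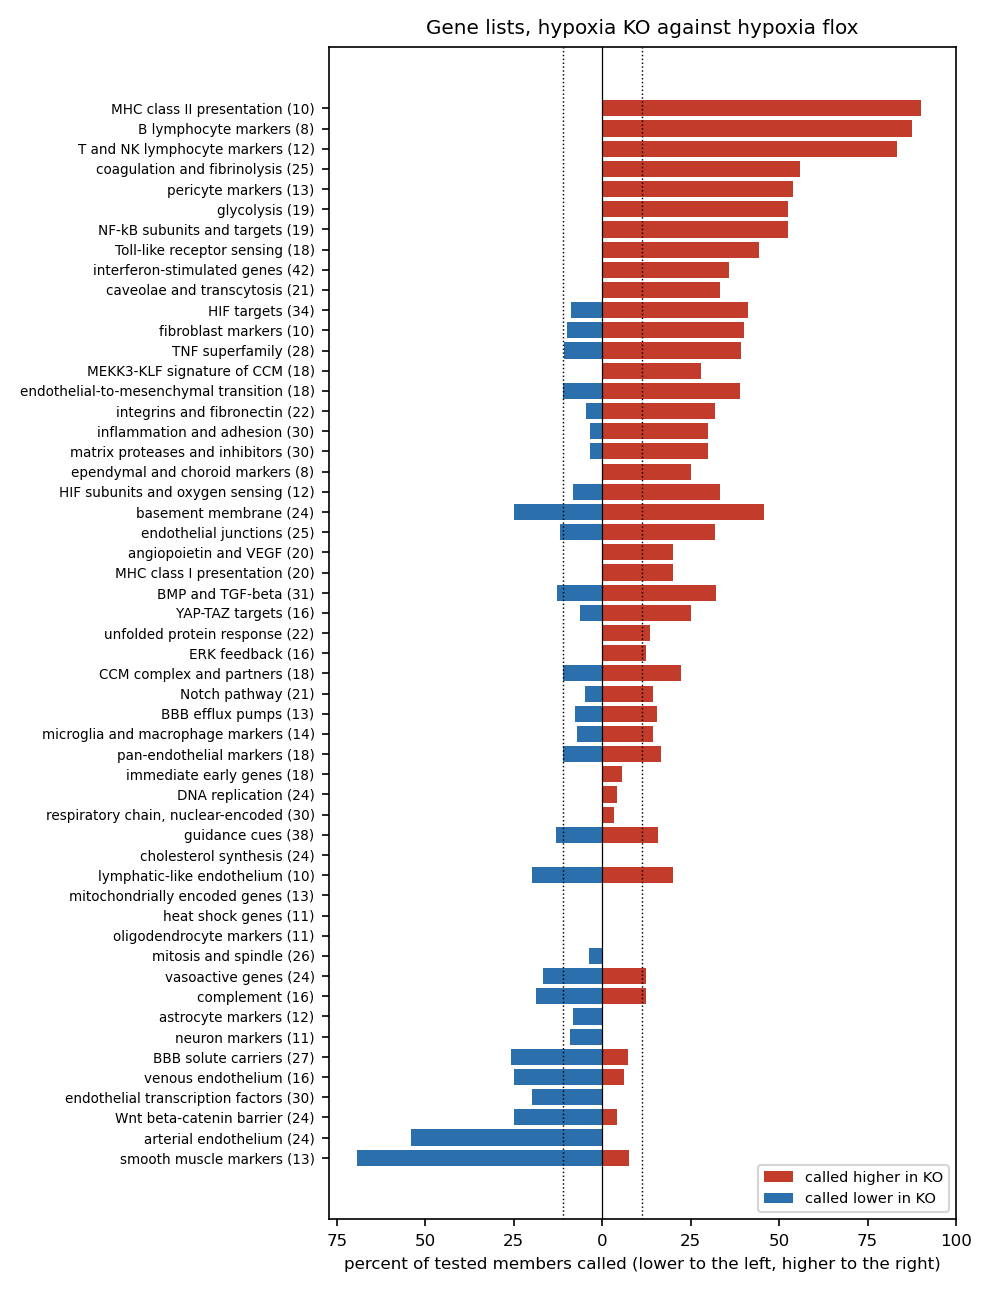
Percent of tested members called higher (red, right) or lower (blue, left) in hypoxia KO for each gene list of at least 8 tested genes, with the number tested in brackets; dotted lines mark the share over all genes tested (11.4% higher, 11.0% lower). Class II and lymphocyte lists top the plot, and arterial and smooth muscle lists are at its foot.

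Growth factor and endothelial regulators included increases and decreases. In the BMP and TGF-beta list, 10 of 31 genes were called higher and 4 lower. Over all genes 11.4% were called higher and 11.0% lower, so only the share of higher genes stood out. Smad3, a TGF-beta effector, rose by 0.75 ± 0.08, while Smad6, an inhibitor of BMP signalling, was lower by a log2 fold change of -0.96 ± 0.14. Of 30 endothelial transcription factors 6 were called lower and none higher. Ramp3, a receptor partner for adrenomedullin, had 77.3 to 171 CPM in KO libraries, against 8.47 to 13.4 CPM in flox libraries (3.28 ± 0.40, adjusted p = 4.89e-05). Edn3, an endothelin, had 13.8 to 58.8 CPM in KO libraries, against 145 to 168 CPM in flox libraries (-1.88 ± 0.27, adjusted p = 0.000195).

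Of 24 vasoactive genes 3 were called higher (1 without flox 4, flox 5, KO 2 or KO 5) and 4 lower, shares near the 11.4% and 11.0% of all genes. Ace, which makes angiotensin II, had 21.0 to 47.9 CPM in KO libraries, against 80.7 to 129 CPM in flox libraries (-1.77 ± 0.23, adjusted p = 7.43e-05). Nos1, a nitric oxide synthase, had 32.1 CPM in KO 1 and 8.51 to 15.9 CPM in the other KO libraries, against 40.9 to 65.5 CPM in flox libraries (-1.57 ± 0.32, adjusted p = 0.0026). All KO libraries lay below flox for both genes.

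The genotype difference overlapped with that in room air. Both comparisons come from 1 fit, and they share no library. Of the 1994 genes higher after hypoxia, 1131 (56.7%) were also called higher in normoxia, which is 67.6% of the 1673 called there. Of the 1922 lower genes, 898 (46.7%) were also lower in normoxia, 72.9% of 1232. In normoxia 16.6% of genes were called, 9.54% higher and 7.03% lower. The test of the difference between the 2 genotype effects called 78 genes (0.445%), all with a lower KO over flox ratio in hypoxia. That count was 34, 36, 44 and 44 without flox 2, 3, 4 and 5, and 20 without flox 2 and KO 1. DESeq2 called 143, of which 20 had the higher ratio in hypoxia. In only the libraries with Y-linked transcripts and almost no Xist it was 75, with 42 higher and 33 lower, so the shared direction was not kept there; that fit holds 1 hypoxia KO library and 1 normoxia flox library.

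Cell division genes made up much of that set: 21 of the 78 are among the 26 tested genes of the mitosis list. In normoxia 24 of these 26 were called higher in KO, and after hypoxia none was called higher and 1 lower. All 26 had a negative log2 fold change after hypoxia, with a median of -0.56, and the count called lower was 6 without KO 2, 2 without flox 4 or KO 5, and 0 without flox 2, KO 3 or KO 4. Their summed level was 228, 483, 225, 363 and 415 CPM in hypoxia KO, against 658, 507, 425 and 409 CPM in hypoxia flox. In normoxia it was 236, 158, 150, 224 and 268 CPM in KO, against 73.5, 61.8, 50.1 and 77.8 CPM in flox. Hypoxia flox libraries were thus the highest of the 4 groups on average. Espl1, separase, which parts sister chromatids, had 3.73 to 6.22 CPM in hypoxia KO, against 6.66 to 8.42 CPM in hypoxia flox, while in normoxia it had 5.38 to 9.10 CPM in KO, against 1.03 to 1.51 CPM in flox. Its interaction log2 fold change was -2.85 (adjusted p = 8.78e-05). Bub1b, a spindle checkpoint kinase, was lower in KO after hypoxia (-0.70 ± 0.21, adjusted p = 0.0266) and higher in normoxia; the hypoxia call was lost on leaving out some single libraries (adjusted p up to 0.0790). It is 1 of 11 genes called lower in hypoxia and higher in normoxia, with no gene called the other way round. Lama1, a laminin alpha chain, is another, with 9.40 to 19.7 CPM in hypoxia KO, against 26.7 to 31.6 CPM in hypoxia flox, and 16.0 to 36.3 CPM in normoxia KO, against 10.2 to 12.4 CPM in normoxia flox. F5 rose in both, less after hypoxia (interaction -1.23, adjusted p = 0.0245).

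**Figure D5:**
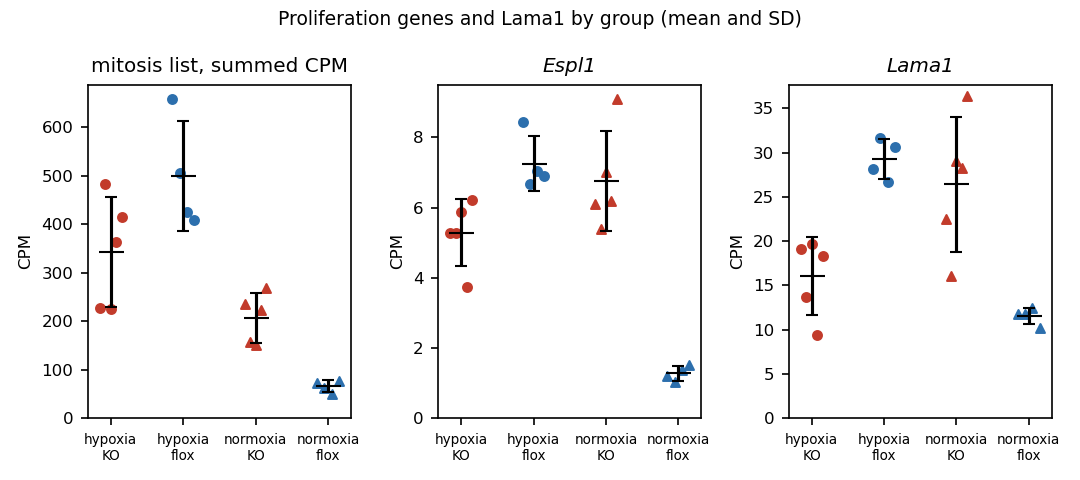
CPM by library, with mean and SD, of the summed mitosis list, Espl1 and Lama1 in the 4 groups; red is KO, blue is flox, circles are hypoxia and triangles normoxia. In normoxia the KO points lie above flox, and after hypoxia the Espl1 and Lama1 points of KO lie below flox.

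The Bub1b promoter is shown for the cell cycle element. It is the RefSeq window of build GRCm38.p6 at chr2:118597961-118598260, plus strand; capitals mark TTTGAA, searched on both strands. This motif lay in 17 of 22 tested mitosis genes with a promoter in the table, against 14.7% of all tested genes in it. In all, 7 motifs were searched, each in 1 list. The RBPJ motif (TGTG directly followed by GGAA) lay in 0 of 19 arterial genes, against 1.90% of all tested genes, and the KLF motif (CCAC directly followed by ACCC) in 0 of 12 genes of the MEKK3 and KLF list, against 4.37%. The NF-kB motif (GGGA and TTTCC with 1 base between) lay in 2 of 15 NF-kB genes, against 0.513%, and the CArG box in 1 of 10 smooth muscle genes, against 1.62%.
Bub1b: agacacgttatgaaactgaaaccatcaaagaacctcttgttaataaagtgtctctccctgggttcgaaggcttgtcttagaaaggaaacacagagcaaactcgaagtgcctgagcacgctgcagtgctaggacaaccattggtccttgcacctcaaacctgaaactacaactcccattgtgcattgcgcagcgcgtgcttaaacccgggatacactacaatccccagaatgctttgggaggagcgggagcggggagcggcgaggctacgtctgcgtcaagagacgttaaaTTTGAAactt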

How the data were processed

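RNA-seq libraries of isolated brain endothelial cells were analysed from the table of whole-number read counts per gene that the authors deposited, and the deposited RPKM were used for levels per length. Per the submitters' processing notes, HISAT2, edgeR and GRCm39 were used; versions and the strand setting of counting are not given in the sources used here. Symbols matched 91.3% of identifiers. No column of sample values was left unused (0).

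Counts were fitted in R 4.3.3 with edgeR 4.0.16: filterByExpr with the 4 groups, TMM, 1 mean per group over all 18 libraries, robust quasi-likelihood fit, Benjamini-Hochberg adjustment over all genes tested, threshold 0.05. The SE of a log2 fold change was derived from it and the F statistic (ratio to the root of F). The alternative named DESeq2 used version 1.42.0 of that tool, and all others used edgeR. In a simulation of the hypoxia comparison with 200 changed genes among 17282, 90% and 86% of genes with log2 fold changes of 2 and -2 were called, 66% and 40% at 1 and -1, and 3 of 17082 unchanged genes.

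Named genes follow a rule: chosen key genes; the 12 highest and 12 lowest fold changes without overlap, where the mean log2 CPM reaches 1; the 10 smallest p and 10 largest CPM differences per direction; up to 4 called members per list; and up to 6 interaction genes per direction. Actg2 is named outside it and was chosen after its value was seen. The members and the 57 lists were chosen with earlier results of these data known. Summed levels of a list cover all its members among the genes counted, also those not tested. Alternatives were other scaling, filters, tools, samples, covariates, the replicate number as a block, and leaving out each hypoxia library.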

Additional observations from a re-analysis of the deposited data

Results flagged for a closer look

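For each gene that the naming rule gives, and for 3 library measures, the highest and lowest library of each hypoxia group were compared with the rest by Dixon's criterion. It marked 49 of 472 groups, where chance gives about 1 in 20, and KO 4 was the library in 32 of them. These genes were chosen for their differences between groups, and many share pathways, so the marks are not independent.

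KO 4 stood apart from the other KO libraries for Procr at 105, Il1b at 48.9, Slc16a3 at 86.1, Cd74 at 299, H2-DMb1 at 28.1, Ifi211 at 17.2, Tnfrsf9 at 33.5, Plscr1 at 8.72, Car4 at 101, Abcc5 at 177, S100a6 at 127, Ccl5 at 13, Tnfrsf23 at 82.7, Tlr2 at 27.5, Ifi204 at 15.3, H2-T23 at 287, B2m at 2069, H2-K1 at 1921, H2-Aa at 103, H2-Ab1 at 111, Ciita at 18.5, C5ar1 at 9.45, Ramp3 at 171, Robo4 at 1201, Plxnb2 at 123, Lmo2 at 80.6, Crim1 at 486, Dcn at 42.2, Csf3r at 21.4, S100a9 at 49.4, Xist at 0.145 CPM. KO 1 stood apart from the other KO libraries for Klf2 at 856, Klf4 at 872, Vegfa at 19.8, Actg1 at 1532, Acta2 at 75.8, Cd2 at 1.08 CPM. KO 3 stood apart from the other KO libraries for Etv4 at 1.37 CPM. flox 2 stood apart from the other flox libraries for Vcam1 at 452, Mannr at 4.23, Sh3bgrl2 at 22.7, Nfkbie at 9.43, Cd55 at 17.6 CPM. flox 4 stood apart from the other flox libraries for Gpr21 at 5.45, Nos1 at 65.5, Mfap5 at 0.198 CPM. flox 5 stood apart from the other flox libraries for Ildr2 at 120 CPM.

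KO 1 was also apart in the immediate early score (6.67), and KO 4 in the sex signal (8.35), the log2 ratio of Y-linked CPM to Xist. The values are given with no explanation.

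The genotype effect differed between hypoxia and normoxia, by the interaction term, for F5 (-1.23), Lyve1 (-2.09), Bub1b (-2.26), Uhrf1 (-1.31), Lama1 (-2.06), Espl1 (-2.85), Pimreg (-4.40), Hmmr (-3.47), Kif20a (-2.29), Ncapg (-3.58), as log2 of the hypoxia KO over flox ratio relative to the normoxia ratio. All were called at an adjusted p of 0.05 by edgeR.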

How the results depend on the processing

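The count of genes called after hypoxia stayed within 1.5 times of 3916 in each of the 23 alternatives, from 2664 to 5542. It was 2877 with immediate early score and sex signal as covariates (1740 higher and 1137 lower), a fit that kept 2091 of the calls; 5542 without the 2 normoxia libraries that carry neuron markers; and 2664 to 4499 leaving out 1 hypoxia library. Of 221 named genes called, 149 kept their call in every alternative.

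The interaction count of 78 moved more. It was 143 by DESeq2, 20 without flox 2 and KO 1, and 34 to 85 leaving out 1 hypoxia library, with 34, 36, 44 and 44 without flox 2, 3, 4 and 5; the cause was not tested. The immediate early score difference of 1.82 became 2.42 without KO 1 (exact two-sided permutation p = 0.0286), and ranged from 1.37 to 2.48 over the libraries left out.

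Directions reversed for Icam1 with the immediate early score as covariate (-0.49), for Heyl (-0.030) and Xist (-2.19) in libraries with Y-linked transcripts, and for Xist (-0.40) with the sex signal; the cause was not tested.

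Same-numbered libraries did not pair: their deviations from the group means correlated at 0.158, 0.0403, -0.183 and -0.339 over genes. With the replicate number as a block, 4098 genes were called in the hypoxia libraries alone and 3526 in all 18, and the interaction count was 3.

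In the simulation 66% and 40% of genes with log2 fold changes of 1 and -1 were called, so changes of that size can be missed at this depth.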
